A study of Mus musculus with 18 samples.

Results

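Livers that lack SECISBP2 in hepatocytes were compared directly with livers that lack the selenocysteine transfer RNA there, so that loss of the protein that reads the selenocysteine signal was set against loss of the transfer RNA itself. The compared libraries were chosen by genotype, as all 4 Secisbp2 knockout libraries (2 of ribosome footprints and 2 of mRNA) and all 4 Trsp knockout libraries (2 and 2), which makes 8 of the 18 libraries in the study. Mice of the first group were Alb-Cre; Secisbp2fl/fl and mice of the second were Alb-Cre; Trspfl/fl, all male and 5 to 8 weeks old. The other 10 libraries came from wild type male littermates, with 2 libraries per assay for Secisbp2 and 3 for Trsp. Alb-Cre drives recombination from the albumin promoter, so that Kupffer, endothelial and stellate cells of the liver keep the floxed gene. Whole livers were pulverised, footprints were taken from RNase I digested tissue and mRNA was selected by its polyA tail.

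Selenocysteine is inserted at UGA codons that would otherwise end translation. A hairpin in the 3' untranslated region, the SECIS element, binds SECISBP2, which brings the charged transfer RNA made from Trsp to the ribosome. An mRNA whose UGA is read as a stop can be degraded by nonsense-mediated decay, and the liver depends on selenoproteins for peroxide removal, thyroid hormone metabolism and the export of selenium in plasma.

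The deposited values are RPKM, read density per length and per mapped reads of the library, for 23 selenoprotein genes in 3 tables: footprints on the coding sequence 5' of the UGA, footprints 3' of it, and mRNA reads. Footprints 3' of the UGA come from ribosomes that passed it, and dividing the 3' by the 5' density within a library gives its measure of UGA redefinition. The measure is relative, for comparing libraries within a gene. It is not the share of ribosomes that passed, as values such as 308% for Selenoi in Trsp knockout replicate 2 show. Neither Secisbp2, Trsp nor any marker of hepatocytes or other liver cells was among the 23 genes, so the deletions and the tissue were not checked here. In whole liver, fewer cells of a type and less RNA per cell cannot be told apart.

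The knockout libraries differed in depth. Depth was recovered from the RPKM steps, relative to the shallowest library of each assay. For footprints it was 3.88 and 4.08 in Secisbp2 knockout and 1.15 and 1.59 in Trsp knockout. For mRNA it was 5.38 and 5.60 against 4.83 and 3.06. Read sums over the 23 genes, given next, depend on the levels of these genes as well as on depth. Over the 23 genes the Secisbp2 knockout footprint libraries held 11356 and 10526 reads 5' of the UGA and 4285 and 3133 reads 3' of it, and the Trsp knockout libraries 2970 and 4354 reads 5' and 699 and 898 reads 3'. The mRNA libraries held 87024 and 76599 reads in Secisbp2 knockout and 112439 and 68125 reads in Trsp knockout. The labels' library codes put the Secisbp2 knockout, the Secisbp2 wild type and all Trsp libraries in 3 different sets, and in each direct comparison the genotype and the set cannot be told apart. Among the wild type libraries, footprint replicate 2 of Trsp stood apart, with a Gpx1 3'/5' ratio of 17.3% against 104% and 135% in the other Trsp wild type libraries, and it enters the direct comparisons only through the estimate of the spread. Nothing in the labels ties a library to its own mouse beyond the statement of 3 mice per genetic background, so the p-values measure the spread between these libraries.

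The first comparison asked how much mRNA of each selenoprotein was left in each knockout. Of 20 mRNAs tested, 7 were higher in Secisbp2 knockout than in Trsp knockout livers and 7 were lower, so that 70% differed (35% in each direction) at a Benjamini-Hochberg adjusted p under 0.05 by limma, and the median log2 difference over all 20 was -0.04. All 3 thioredoxin reductase mRNAs, Selenok, Selenot, Selenoo and Selenoi were higher with SECISBP2 lost. Gpx2, Dio1, Sephs2, Selenop, Selenos, Selenof and Gpx4 were higher with the transfer RNA lost. Dio2, Dio3 and Selenon stayed under the minimum mean of 1 RPKM and were not tested.

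Footprints 5' of the UGA, from ribosomes that had not yet reached it, gave the same division. Of 20 genes tested, 12 differed (60% by limma), 5 of them higher in Secisbp2 knockout (25%) and 7 lower (35%), with a median log2 difference of 0.01. All 12 were also called for mRNA in the same direction, which is 100% of the calls 5' of the UGA and 85.7% of the 14 mRNA calls. The knockout libraries did not overlap in any of the 14 mRNA calls or the 12 footprint calls, nor in most genes tested, 17 of 20 mRNAs (85%) and 15 of 20 genes 5' of the UGA (75%). Exact permutation of 2 against 2 libraries cannot give a two-sided p below 0.333, and limma therefore borrowed the spread across genes and across all 4 groups.

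**Figure D1:**
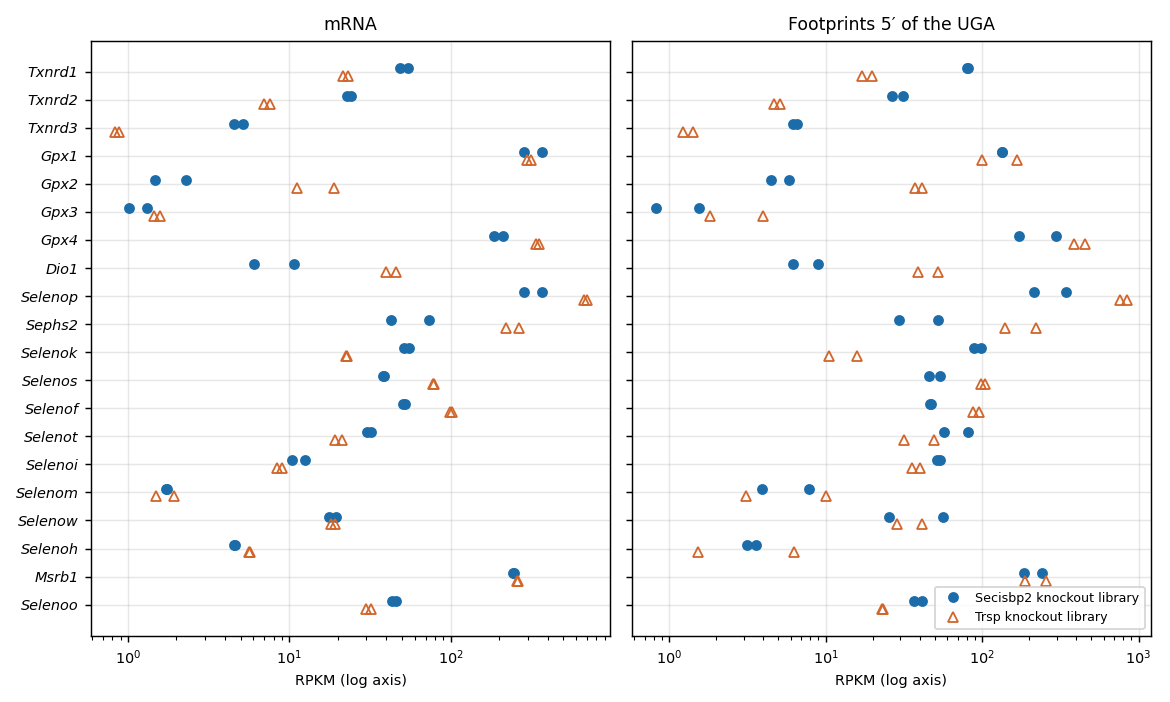
RPKM on a log axis of the 20 tested genes in each knockout library, for mRNA (left) and footprints 5' of the UGA (right); blue circles are Secisbp2 knockout libraries and open orange triangles are Trsp knockout libraries, 2 of each. The circles lie to the right of the triangles for the 3 thioredoxin reductases and Selenok and to the left for Gpx2, Dio1, Sephs2 and Selenop, while Gpx1 mRNA overlaps near 300 RPKM in both.

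The thioredoxin reductases keep thioredoxin reduced, TXNRD1 in the cytosol and TXNRD2 in mitochondria, while TXNRD3 carries an added glutaredoxin domain and is best known from testis. Txnrd1 mRNA was 54.6 and 48.8 RPKM in the Secisbp2 knockout libraries and 21.6 and 23.1 RPKM in the Trsp knockout libraries. Its log2 difference was 1.19 (SE 0.13, limma adjusted p = 5.11e-05), and Txnrd1 footprints 5' of the UGA differed more, at 80.8 and 80.1 RPKM against 17.1 and 19.7 RPKM (log2 difference 2.10, SE 0.22, limma adjusted p = 0.000134). Both Secisbp2 knockout libraries were the higher ones in both assays.

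Txnrd2 mRNA was 24.0 and 22.9 RPKM in Secisbp2 knockout and 7.01 and 7.64 RPKM in Trsp knockout (log2 difference 1.62, SE 0.11, limma adjusted p = 3.36e-06). Footprints 5' of its UGA were 31.1 and 26.5 RPKM against 5.09 and 4.66 RPKM (2.44, SE 0.21, limma adjusted p = 9.48e-05). The groups stood 3.20-fold apart for mRNA and 5.91-fold apart for footprints. Txnrd3 was the least abundant of the 3, with 4.52 and 5.18 RPKM of mRNA against 0.885 and 0.830 RPKM, a log2 difference of 1.98 (SE 0.16, limma adjusted p = 8.61e-06). Footprints 5' of the UGA were 6.58 and 6.23 RPKM against 1.43 and 1.23 RPKM (1.92, SE 0.21, limma adjusted p = 0.000134), the latter from 16 and 19 reads. So 3 of 3 members were higher in Secisbp2 knockout in both assays (35% and 25% of all genes tested), with a median log2 difference of 1.62 for mRNA and 2.10 for 5' footprints against -0.04 and 0.01 over all genes tested.

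The glutathione peroxidases, reduce peroxides with glutathione. Of 4 members, 2 were lower in Secisbp2 knockout and 2 did not pass, for mRNA (median log2 difference -0.54) and for 5' footprints (median -0.93) alike, where 35% of all genes tested were lower in either readout. Gpx1, the abundant cytosolic peroxidase of hepatocytes, had 367 and 285 RPKM of mRNA in Secisbp2 knockout and 298 and 316 RPKM in Trsp knockout. The groups overlapped, with a log2 difference of 0.07 (95% interval -0.23 to 0.38, limma adjusted p = 0.660). Its 5' footprints overlapped as well, at 135 and 133 RPKM against 99.8 and 168 RPKM, with a difference of 0.05 and a wide interval from -1.42 to 1.52.

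Gpx2 encodes a peroxidase best known from the intestinal epithelium. Its mRNA was 1.47 and 2.30 RPKM in Secisbp2 knockout (55 and 90 reads) and 11.2 and 18.9 RPKM in Trsp knockout (379 and 404 reads). The log2 difference of -2.69 (SE 0.37, limma adjusted p = 0.000154) was the lowest difference among the 20 mRNAs. Its 5' footprints were 5.85 and 4.45 RPKM, from 10 and 8 reads, against 37.4 and 41.4 RPKM, from 19 and 29 reads (-2.83, SE 0.34, limma adjusted p = 0.000176). Trsp wild type livers held 0.0430 RPKM of Gpx2 mRNA on average and Secisbp2 wild type livers 2.34 RPKM, so the Secisbp2 knockout level was 80.6% of its own wild type mean.

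Gpx4 encodes the peroxidase that reduces lipid hydroperoxides in membranes. Gpx4 mRNA was 210.2 and 187 RPKM in Secisbp2 knockout against 354 and 338 RPKM in Trsp knockout (-0.80, SE 0.17, limma adjusted p = 0.00180). Its 5' footprints were 295 and 173 RPKM against 384 and 452 RPKM (-0.88, SE 0.27, limma adjusted p = 0.0232), and this footprint call was lost without Secisbp2 knockout replicate 2 (-0.50, limma adjusted p = 0.107) and without either Trsp knockout replicate (limma adjusted p = 0.0530 and 0.124), and also when only the knockout groups were fitted (0.0833). Gpx3, the peroxidase secreted into plasma, was near 1 RPKM in both knockouts, with an mRNA difference of -0.28 that did not pass (limma adjusted p = 0.194).

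Of the deiodinases, which remove iodine from thyroid hormones, only Dio1 passed the RPKM minimum. Dio1 mRNA was 10.7 and 6.06 RPKM in Secisbp2 knockout and 46.2 and 39.7 RPKM in Trsp knockout, 5.12-fold higher in the latter (log2 difference -2.34, SE 0.25, limma adjusted p = 4.39e-05). Dio1 footprints 5' of the UGA were 9.002 and 6.18 RPKM against 52.1 and 38.9 RPKM (-2.51, SE 0.28, limma adjusted p = 0.000137). Dio2 and Dio3 mRNA reached at most 0.207 RPKM in any knockout library.

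The genes of selenium transport and supply were both lower in Secisbp2 knockout for mRNA (median log2 difference -1.59) and 5' footprints (median -1.85). Over all genes tested, 35% were lower in either readout. Neither was called 3' of the UGA, and both had a higher 3'/5' ratio in Secisbp2 knockout, as given below. Selenop encodes the plasma protein that carries selenium from the liver to other organs and holds several selenocysteines. Selenop mRNA was 366 and 285 RPKM against 696 and 673 RPKM (-1.08, SE 0.16, limma adjusted p = 0.000264). Selenop 5' footprints were 346 and 214 RPKM against 759 and 847 RPKM (-1.56, SE 0.27, limma adjusted p = 0.00159). Sephs2 encodes selenophosphate synthetase, which makes the selenium donor for selenocysteine and is itself a selenoprotein. Sephs2 mRNA was 73.4 and 42.7 RPKM against 265 and 219 RPKM, 4.17-fold higher in Trsp knockout (-2.10, SE 0.22, limma adjusted p = 4.39e-05). Sephs2 5' footprints were 52.5 and 29.5 RPKM against 220.4 and 140.0 RPKM (-2.14, SE 0.34, limma adjusted p = 0.000939). For both genes and in both assays every Trsp knockout library lay above every Secisbp2 knockout library.

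Of 8 listed selenoproteins of the endoplasmic reticulum 6 were tested. Among these, 3 mRNAs were higher in Secisbp2 knockout, 2 were lower and 1 did not pass (median log2 difference 0.20), beside 35% in each direction over all mRNAs tested. Selenok, a membrane protein that takes part in degradation of misfolded proteins and in protein palmitoylation, had 51.1 and 55.4 RPKM of mRNA against 22.8 and 22.5 RPKM (1.22, SE 0.15, limma adjusted p = 0.000107). Its 5' footprints were 88.8 and 99.1 RPKM, from 424 and 497 reads, against 10.6 and 15.8 RPKM, from 15 and 31 reads. That is a 7.12-fold ratio of the means and a log2 difference of 2.81 (SE 0.52, limma adjusted p = 0.00191), the highest among the 20 genes 5' of the UGA.

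Selenos, a partner in the same degradation machinery, went the other way. Selenos mRNA was 37.9 and 38.5 RPKM in Secisbp2 knockout and 78.5 and 77.9 RPKM in Trsp knockout (-1.03, SE 0.17, limma adjusted p = 0.000466). Its 5' footprints were 54.0 and 45.8 RPKM against 104 and 98.8 RPKM (-1.02, SE 0.26, limma adjusted p = 0.00958), a call lost without Secisbp2 knockout replicate 2 (limma adjusted p = 0.0525) or Trsp knockout replicate 1 (0.0530).

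Selenof, which binds a glucosyltransferase of glycoprotein folding, had 52.0 and 50.8 RPKM of mRNA against 102 and 98.7 RPKM (-0.96, SE 0.13, limma adjusted p = 0.000150). Its 5' footprints were 47.0 and 46.7 RPKM against 87.6 and 95.9 RPKM (-0.96, SE 0.25, limma adjusted p = 0.0115), and this call was lost without Secisbp2 knockout replicate 2 (0.0517) or Trsp knockout replicate 2 (0.0664). In both assays the Trsp knockout libraries held close to 2-fold the Secisbp2 knockout density, with ratios of the means of 1.95 and 1.96.

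Selenot, an oxidoreductase of the endoplasmic reticulum, had 32.3 and 30.3 RPKM of mRNA against 21.2 and 19.1 RPKM (0.62, SE 0.12, limma adjusted p = 0.000917). Its 5' footprints, 81.7 and 56.9 RPKM against 31.5 and 49.0 RPKM, did not overlap but did not pass (0.79, limma adjusted p = 0.0776), except without Trsp wild type replicate 2 (0.0483). Selenoi, an ethanolamine phosphotransferase, had 12.6 and 10.4 RPKM of mRNA against 9.05 and 8.44 RPKM (0.37, SE 0.14, limma adjusted p = 0.0450). That call was lost in 8 of 17 alternative analyses, among them those without Secisbp2 knockout replicate 1 (0.23), without either Trsp knockout replicate, and without replicate 1 or 2 of Trsp wild type. Selenoi 5' footprints, 53.8 and 51.5 RPKM against 40.4 and 35.6 RPKM, did not overlap and did not pass (0.47, limma adjusted p = 0.129), except without Trsp wild type replicate 2 (0.0485). Selenom was close to the RPKM minimum, and its mRNA difference was 0.03 with an interval from -0.63 to 0.69.

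Outside the endoplasmic reticulum, Selenoo, a mitochondrial protein that transfers AMP to other proteins, had 43.5 and 46.1 RPKM of mRNA against 32.3 and 30.04 RPKM (0.52, SE 0.11, limma adjusted p = 0.00192). Selenoo 5' footprints were 37.0 and 41.5 RPKM against 23.5 and 22.97 RPKM (0.74, SE 0.26, limma adjusted p = 0.0394), a call lost in 8 of 17 alternatives, including each that left out a knockout library, a Secisbp2 wild type library or Trsp wild type replicate 3. Selenow, a small redox protein whose mRNA falls when selenium is short, had 19.4 and 17.8 RPKM of mRNA against 18.03 and 19.3 RPKM. These overlapped, with a log2 difference of -0.01 (interval -0.28 to 0.27, limma adjusted p = 0.954). Its 5' footprints, 25.5 and 56.5 RPKM against 28.5 and 41.4 RPKM, rested on 3, 7, 1 and 2 reads and resolve no difference. Msrb1, a methionine sulfoxide reductase, differed by -0.08 for mRNA (interval -0.32 to 0.16), and Selenoh, a nucleolar redox protein, by -0.28 (limma adjusted p = 0.139). The Selenoh difference passed when only the knockout groups entered the fit (limma adjusted p = 0.0152) and without Trsp wild type replicate 3 (0.0305).

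Other groupings cut across these roles. The 4 genes known for mRNA that falls with low selenium (Msrb1, Selenoh, Selenow and Gpx1) had 0 direct calls by limma in mRNA or in 5' footprints, none of them at an unadjusted p under 0.05, with medians of -0.04 and 0.05. Over all genes tested, 70% of mRNAs and 60% of genes 5' of the UGA were called. As given below, Gpx1 was called 3' of the UGA, and Selenoh for mRNA when each knockout was set against its own wild type. Of 4 housekeeping selenoproteins (Gpx4, Txnrd1, Txnrd2 and Selenoi), 3 mRNAs were higher in Secisbp2 knockout, Selenoi with a call that many alternatives lose, and 1 was lower, against 35% each way over all mRNAs. Of 5 genes with a CXXU redox motif 4 were tested for mRNA and 5' footprints. Selenot mRNA was their only direct call there, beside the 70% and 60% called over all genes. Of the 3 tested 3' of the UGA only Selenot was called, beside 16.7% of all genes tested there. As given below, most alternatives lose that call. In 6 listed genes the UGA lies close to the normal stop codon (Selenok, Selenos, Selenoo and the 3 thioredoxin reductases). Of these, 5 were higher and Selenos was lower in Secisbp2 knockout for both mRNA (median 1.20) and 5' footprints (median 2.01), beside 35% and 25% of all genes tested that were higher. The 3 thioredoxin reductases count here again.

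**Figure D2:**
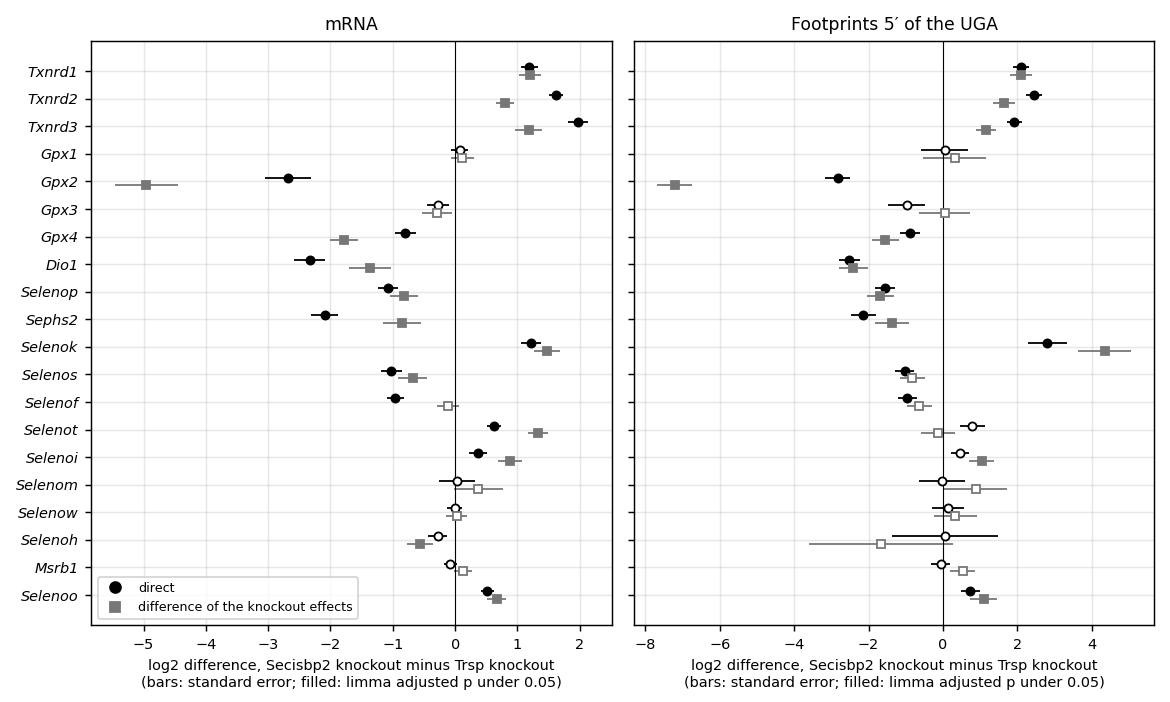
Log2 differences, Secisbp2 knockout minus Trsp knockout, for mRNA (left) and footprints 5' of the UGA (right); circles are the direct comparison, squares are the difference of the knockout effects against each one's own wild type, bars are standard errors and filled symbols passed a limma adjusted p of 0.05. The thioredoxin reductases and Selenok lie above 0 for both symbols and Dio1, Selenop, Sephs2, Gpx2 and Gpx4 below 0; the Gpx2 squares depend on Trsp wild type values at or near 0.

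The DNA just upstream of 3 of these genes is shown because Selenok and Gpx2 were the highest and the lowest 5' of the UGA and Txnrd1 is the cytosolic member of the group that moved together. The sequences are the 250 bases before an annotated start, from RefSeq on GRCm38.p6, 5' to 3' on the gene's strand, with matches to TGACNNNGC, the core of the antioxidant response element, in capitals. The Gpx2 window is chr12:76795555-76795804 (minus strand), the Selenok window chr14:29968130-29968379 (plus strand) and the Txnrd1 window chr10:82858956-82859205 (plus strand).
Gpx2: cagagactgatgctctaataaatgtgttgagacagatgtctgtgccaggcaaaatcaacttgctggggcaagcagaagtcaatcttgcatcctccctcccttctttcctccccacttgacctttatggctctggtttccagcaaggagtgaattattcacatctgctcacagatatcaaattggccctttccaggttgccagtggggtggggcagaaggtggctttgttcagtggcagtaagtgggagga
Selenok: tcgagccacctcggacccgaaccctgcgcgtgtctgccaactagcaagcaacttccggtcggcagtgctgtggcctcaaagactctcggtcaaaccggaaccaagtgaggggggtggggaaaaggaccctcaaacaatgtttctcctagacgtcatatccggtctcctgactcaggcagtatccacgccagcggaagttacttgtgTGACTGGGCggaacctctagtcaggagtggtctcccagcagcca
Txnrd1: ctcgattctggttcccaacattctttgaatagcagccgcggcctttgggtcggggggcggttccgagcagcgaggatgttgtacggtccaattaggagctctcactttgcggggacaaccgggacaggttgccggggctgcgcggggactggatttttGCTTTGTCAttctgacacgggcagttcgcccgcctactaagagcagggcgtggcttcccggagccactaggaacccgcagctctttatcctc
The Selenok window held 1 match on the strand shown and this Txnrd1 window, 1 of several annotated starts, held 1 on the opposite strand, while the Gpx2 window held none. For a gene with a match only windows that held it were printed, so this Txnrd1 start was picked for its match. Over both strands the motif occurred in 10.2% of 32851 such windows of the genome and in 2 of the 30 windows of the 23 selenoprotein genes, those printed here. The match describes the letters alone, and binding was not measured.

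Beyond the UGA the picture changed. Of 12 genes tested 3' of it, 2 were higher in Secisbp2 knockout (16.7% by limma) and 0 were lower (0%). At an unadjusted p under 0.05, 5 were higher and 0 lower, and the median log2 difference was 0.17. The other 11 genes could not be tested, as 8 (Dio2, Dio3, Selenok, Selenoo, Selenos and the 3 thioredoxin reductases) had 0 reads in every library and Gpx2, Selenom and Selenon averaged under 1 RPKM.

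Gpx1 stood out. Its 3' footprints were 173 and 117 RPKM in Secisbp2 knockout, from 1529 and 1086 reads, and 24.4 and 26.0 RPKM in Trsp knockout, from 64 and 94 reads. The ratio of the means was 5.77 and the log2 difference 2.48 (SE 0.40, limma adjusted p = 0.000980), and over 17 alternatives it ranged from 2.02 to 2.76 with an adjusted p of at most 0.0273. Gpx1 mRNA and 5' footprints overlapped between the knockouts, as did those of Selenow and Selenom. Selenot 3' footprints were 5.51 and 3.53 RPKM against 2.01 and 1.46 RPKM, the latter from 5 reads each (1.15, SE 0.34, limma adjusted p = 0.0414), a call lost in 11 of 17 alternatives. Among these were the leaving out of Secisbp2 knockout replicate 1 (0.86, limma adjusted p = 0.227), of Trsp knockout replicate 1 (0.0587) or 2 (0.346), of either Secisbp2 wild type replicate and of Trsp wild type replicate 1 or 3.

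Selenop, Dio1 and Gpx4 overlapped between the knockouts 3' of the UGA although their mRNA and 5' footprints did not. Selenop was at 117 and 83.7 RPKM against 91.5 and 85.8 RPKM, with a log2 difference of 0.16 (interval -0.53 to 0.84, limma adjusted p = 0.839). Gpx4 was at 12.9 and 7.15 RPKM against 11.9 and 8.64 RPKM, a difference of -0.07 (interval -0.98 to 0.83). Dio1 was at 2.41 and 1.28 RPKM against 2.25 and 1.96 RPKM, from 18, 10, 5 and 6 reads, a difference of -0.19 (interval -1.06 to 0.67). None of the 3 passed the test, and each interval spans 0. Sephs2 was at 8.96 and 4.58 RPKM against 3.11 and 3.12 RPKM without overlap, but its difference of 0.94 did not pass (limma adjusted p = 0.109), nor did the Msrb1 difference (1.43). Selenow, at 7.93 and 5.48 RPKM against 4.03 and 2.93 RPKM (33, 24, 5 and 5 reads), did not overlap and did not pass either (0.85, limma adjusted p = 0.109). Selenof was at 19.7 and 21.2 RPKM against 35.3 and 24.3 RPKM, higher in Trsp knockout without overlap, and did not pass (-0.51, limma adjusted p = 0.466). Selenoi was at 105 and 117 RPKM against 121 and 109.5 RPKM (-0.06, limma adjusted p = 0.946). Over the 12 genes tested the knockout libraries did not overlap in 5 (41.7%), with 4 higher in Secisbp2 knockout and 1 lower. Sephs2 passed without Secisbp2 knockout replicate 2 (1.39, limma adjusted p = 0.0182), and Msrb1 passed in 4 of 17 alternatives, among them those without Trsp knockout replicate 1 (2.41) and without Trsp wild type replicate 2 (limma adjusted p = 0.00485).

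**Figure D3:**
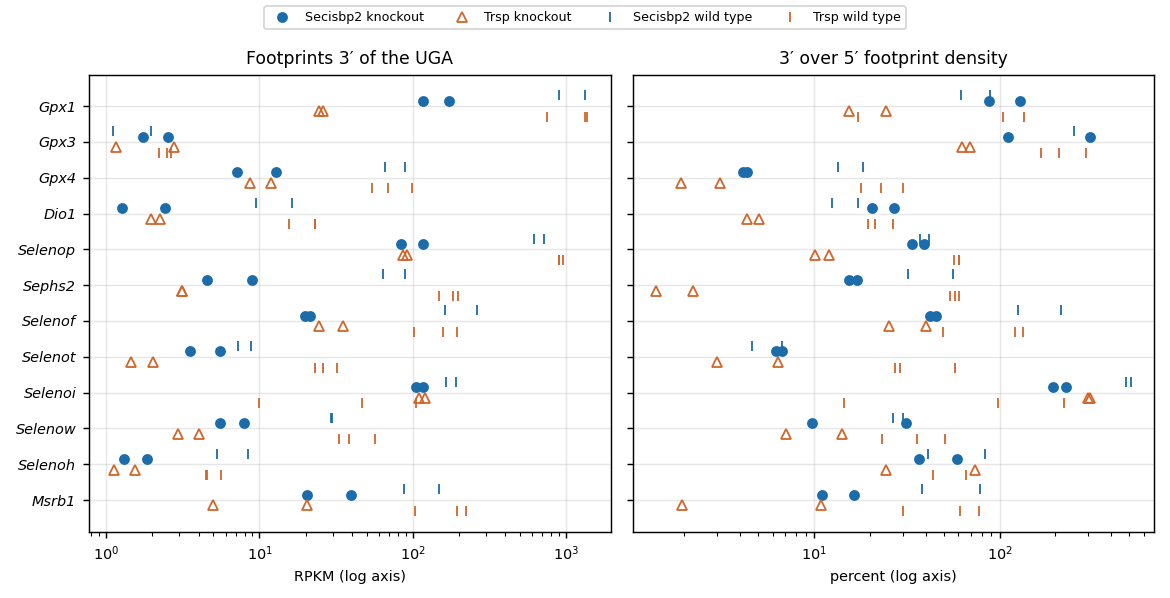
Footprints 3' of the UGA in RPKM (left) and the 3'/5' density ratio in percent (right), both on log axes, for the 12 genes tested; blue circles are Secisbp2 knockout libraries, open orange triangles Trsp knockout libraries, and ticks are the wild type libraries of each (no ratio where a library had no 5' reads). The circles of Gpx1, Dio1, Selenop and Sephs2 lie to the right of the triangles in the ratio panel, whereas for Selenop and Dio1 the symbols share a range in the 3' density panel.

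The 3'/5' ratio was then compared within each footprint library, which removes that library's own scaling. Of 12 genes, 3 had a higher ratio in Secisbp2 knockout (25% by limma) and 0 a lower one (0%). At an unadjusted p under 0.05, 5 were higher and 0 lower, and the median log2 difference over the 12 genes was 0.97. For 8 of the 12 genes both Secisbp2 knockout libraries lay above both Trsp knockout libraries, for 1 (Selenoi) both lay below, and 3 overlapped.

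Sephs2 showed the highest difference. Its ratio was 17.0% and 15.5% in Secisbp2 knockout (exact 95% intervals 13.8% to 21.1% and 11.7% to 20.6%) and 1.41% and 2.23% in Trsp knockout (0.855% to 2.22% and 1.45% to 3.31%). The log2 difference was 3.08 (SE 0.37, limma adjusted p = 0.000739). The intervals of the groups did not meet, and they cover counting error only. Dio1, the hepatic deiodinase, had ratios of 26.8% and 20.6% (intervals 14.9% to 45.9% and 9.26% to 41.6%) against 4.32% and 5.04% (1.38% to 10.4% and 1.81% to 11.3%). Its log2 difference was 2.32 (SE 0.30, limma adjusted p = 0.000739), although the intervals of single libraries overlap at these read numbers.

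Selenop had ratios of 33.7% and 39.1% (31.3% to 36.4% and 35.7% to 43.0%) against 12.1% and 10.1% (10.7% to 13.6% and 9.16% to 11.2%), a log2 difference of 1.71 (SE 0.25, limma adjusted p = 0.00114). Its 3' reads numbered 2179 and 1642 against 508 and 657, so counting error was small here. The Gpx1 ratio was 129% and 88.0% (113% to 146% and 77.3% to 100.3%) against 24.4% and 15.5% (17.0% to 35.2% and 11.8% to 20.2%). Its log2 difference of 2.43 did not pass in the fit of all groups (SE 0.94, limma adjusted p = 0.0963). It did pass without Trsp wild type footprint replicate 2 (limma adjusted p = 0.00171), the library that stood apart, and when only the knockout groups were fitted (0.00404).

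The remaining ratios differed less or were less certain. Gpx4 stood at 4.37% and 4.13% against 3.10% and 1.91% (0.81, limma adjusted p = 0.141), so that little footprint density lay beyond its UGA in either knockout. Msrb1 was at 16.4% and 10.99% against 10.8% and 1.94%, the latter from 6 and 2 reads. Selenof was at 41.9% and 45.5% against 40.3% and 25.4% (0.45, limma adjusted p = 0.588) and Selenot at 6.74% and 6.21% against 6.39% and 2.98%. Selenow, at 31.1% and 9.70% against 14.2% and 7.08%, overlapped and rested on few reads (0.71, limma adjusted p = 0.456). Gpx3, at 306% and 111% against 62.6% and 69.5%, did not overlap and did not pass (1.13, limma adjusted p = 0.0963). Its log2 difference was 1.67 without Secisbp2 knockout replicate 2. The Gpx3 ratios rested on 3 and 6 reads 5' of the UGA in Secisbp2 knockout and 2 and 6 in Trsp knockout. Their exact intervals all overlap, at 91.9% to 1596% and 41.3% to 347% against 7.17% to 749% and 22.9% to 232.7%. Selenoi alone lay higher in Trsp knockout, at 299% and 308% against 195% and 227%, and did not pass (-0.52, limma adjusted p = 0.706). Its Trsp knockout ratios rested on 12 and 15 reads 3' of the UGA, and those of Secisbp2 knockout on 35 and 41.

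A scaling factor shared by the 5' and 3' values of a library cancels in its ratio. In an alternative, the tables were scaled so that the median selenoprotein was equal across libraries, separately for 5' and 3'. The median ratio difference then moved by -0.91 on the log2 scale, to 0.06. This scaling takes out a ratio shift shared by the genes by design, so it cannot tell whether such a shift is real. It shows which genes differed beyond the shift. Sephs2 then stood at 2.14 (limma adjusted p = 0.0171), Dio1 at 1.33 (0.0482) and Selenop at 0.69 (0.349, no longer passed). The same scaling moved the median 3' density difference by -0.40 and left Gpx1 at 2.02, still past the threshold.

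Translational efficiency, the 5' footprint density per mRNA, was tested by the assay-by-genotype term of a fit over both assays. Of 20 genes, 2 were higher in Secisbp2 knockout (10% by limma) and 0 lower (0%). At an unadjusted p under 0.05, 3 were higher and 0 lower, and the median log2 difference was -0.001. The 2 genes were Txnrd1 (0.91, SE 0.24) and Txnrd2 (0.83, SE 0.21), both at a limma adjusted p of 0.0217. Both calls were lost under the common scaling, without replicate 1 or 2 of either knockout, and without Trsp wild type replicate 3. Txnrd3 differed by -0.06 and Selenok by 1.60, which did not pass (SE 0.58, limma adjusted p = 0.109) but did without Trsp wild type replicate 2 (0.00364). For the 7 genes that were lower in Secisbp2 knockout the difference in efficiency did not pass. It was -0.48 for Selenop (interval -1.16 to 0.21), -0.18 for Dio1, -0.14 for Gpx2 (interval -1.33 to 1.05, the widest of the 7), -0.08 for Gpx4, -0.05 for Sephs2, -0.004 for Selenof and 0.002 for Selenos.

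Wild type levels were not alike in the Secisbp2 and Trsp litters, so each knockout was set against its own wild type and the knockout effects were compared. This comparison uses the same knockout libraries as the direct one and is not independent of it, and for Secisbp2 it spans library sets. By limma, 14 of 20 mRNAs had different knockout effects (70%; 7 in each direction, 35%), 11 of 20 genes 5' of the UGA (55%; 6 higher, 30%, and 5 lower, 25%), 3 of 12 genes 3' of it (25%) and 4 of 12 ratios (33.3%), the last 2 all higher with SECISBP2 lost.

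Txnrd1 mRNA was 142% of the wild type mean in Secisbp2 knockout and 60.8% in Trsp knockout, Txnrd2 88.3% and 49.2%, and Txnrd3 111% and 37.7%. Their direct differences of 1.19, 1.62 and 1.98 stood beside differences of effect of 1.20, 0.80 and 1.18. Selenok mRNA was at 84.0% and 30.1%, and its 5' footprints at 243% and 10.1%, from wild type means of 38.7 and 131 RPKM. Its difference of effect 5' of the UGA was 4.35 (SE 0.70, limma adjusted p = 0.00164) against 2.81 directly. Without Trsp wild type replicate 2, at 233 RPKM against 87.5 and 71.5 RPKM in the others, Trsp knockout stood at 16.6% and the difference of effect at 3.83. Against the wild type of the other litters it came to 1.27 and did not pass (limma adjusted p = 0.170). Each of these genes thus kept a higher share of its wild type level in Secisbp2 knockout livers.

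Gpx4 went the other way. Its mRNA was at 36.8% of wild type in Secisbp2 knockout and at 126% in Trsp knockout, from wild type means of 539 and 275 RPKM, a difference of effect of -1.78 (SE 0.23, limma adjusted p = 0.000207) against -0.80 directly. Against the wild type of the other litters the same difference came to 0.18 (limma adjusted p = 0.577), so its direction rests on which wild type is used. For its 5' footprints the difference of effect was -1.55, and -0.21 against the other wild type (limma adjusted p = 0.679). Dio1 mRNA was at 16.8% and 44.2%, Selenop at 18.7% and 32.7%, and Sephs2 at 30.6% and 53.8%. Their differences of effect were -1.37, -0.82 and -0.85, smaller in size than the direct -2.34, -1.08 and -2.10. Secisbp2 and Trsp wild type means in RPKM were 50.0 and 97.2 for Dio1, 1743.7 and 2092.4 for Selenop and 190 and 449.8 for Sephs2. The Sephs2 effect call was lost in 6 of 17 alternatives. Selenof was lower directly (-0.96), but at 59.9% and 64.7% of wild type its effects did not differ (-0.11, interval -0.51 to 0.29, limma adjusted p = 0.574). Gpx1, at 16.1% and 14.8%, and Selenow, at 29.4% and 29.0%, retained similar shares of their mRNA, with differences of effect of 0.12 (interval -0.30 to 0.53) and 0.02 (-0.35 to 0.40).

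**Figure D4:**
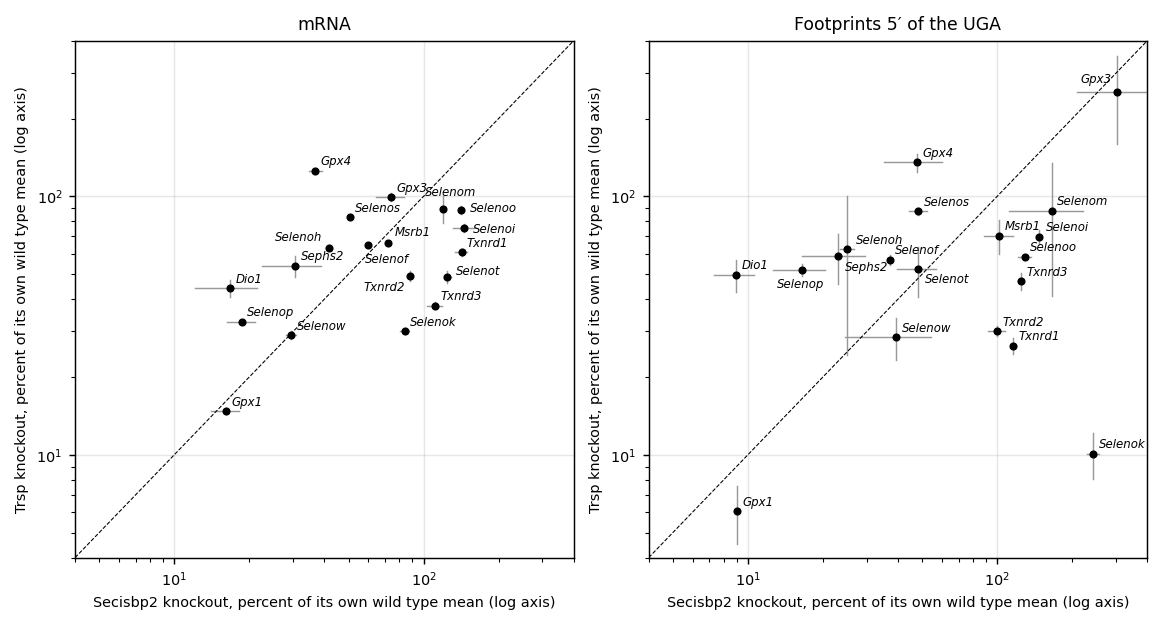
Level left in each knockout as percent of its own wild type mean, Secisbp2 knockout on the x axis and Trsp knockout on the y axis, both log, for mRNA (left) and footprints 5' of the UGA (right); points are means of 2 libraries, grey lines join the libraries and the dashed line marks equal percentages, and Gpx2 is left out because Trsp wild type had 0 reads 5' of the UGA. Gpx1 mRNA lies on the line near 15%, Selenok and the thioredoxin reductases lie below it, and Gpx4, Dio1 and Selenop lie above it.

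Beyond the UGA, Gpx1 kept 12.9% of its own wild type density in Secisbp2 knockout and 2.19% in Trsp knockout, a difference of effect of 2.49 (SE 0.54, limma adjusted p = 0.00508). Sephs2 kept 8.87% and 1.76% (2.16, limma adjusted p = 0.00604) and Selenot 56.4% and 6.42% (2.84, limma adjusted p = 0.00116). Their wild type means were not alike, at 8.02 and 27.0 RPKM for Selenot and 76.3 and 177 RPKM for Sephs2. For the 3'/5' ratio, Sephs2 (3.51), Selenot (2.97), Dio1 (2.89) and Selenop (2.30) passed by limma. Only Sephs2 of these still passed under the common scaling, which by design takes out a ratio shift shared by the genes and moved the median by -1.24. In Secisbp2 litters, mean ratios in wild type and knockout were 44.15% and 16.3% for Sephs2 and 5.67% and 6.47% for Selenot. For Dio1 they were 14.9% and 23.7%, and for Selenop 39.5% and 36.4%. In Trsp litters they were 57.4% and 1.82% for Sephs2 and 37.8% and 4.68% for Selenot. There Dio1 stood at 22.4% and 4.68% and Selenop at 59.3% and 11.1%.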

How the data were processed

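The authors deposited RPKM in 3 tables of 23 selenoprotein genes, per the file headers. The submitters' processing notes name Bowtie 0.12.8 and the mm9 build. Counting, filters, window lengths and the mapped-read totals are not given in the sources used here. Of the gene names, 11 matched a current symbol and 12 a synonym (RefSeq, GRCm38.p6). A date in place of the Selenof 3' value of Secisbp2 wild type replicate 1 was read as its serial number, 263.871 RPKM, or 521 reads. Read numbers were recovered from the RPKM steps, where all 312 footprint and 203 mRNA values above 0 came within 0.02 of whole reads, which the recovery required. The reads carry no molecular identifiers, so intervals cover counting error only.

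A gene was tested where it averaged 1 RPKM or more in each table used, as log2(RPKM + 0.5), a scale that understates changes of low genes, with limma 3.58.1 in R 4.3.3. All 4 groups shared the spread, tests were two-sided, and adjustment was Benjamini-Hochberg over all genes tested, with a threshold of 0.05. Exact 95% intervals of ratios used Python 3.11.15 and scipy 1.17.1. On 100 simulated tables of 23 genes for each comparison, 2-fold and 4-fold changes were found in 96% and 100% for mRNA, 65.1% and 89.7% for 5' footprints, 51.5% and 75.6% for 3' footprints, 16% and 60.4% for the ratio, and 53.5% and 85% for translational efficiency. Unchanged genes made up 4.17%, 7.32%, 10.3%, 14.4% and 7.96% of the calls. The shares found count only changed genes that passed the RPKM minimum. Every simulated gene and library had the same dispersion, with no difference between library sets. These shares therefore need not hold for the real libraries.

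The compared groups and the gene lists were chosen with earlier results of these data known. Library values were printed for each gene called in a direct comparison and for Gpx1, Gpx4, Selenop, Selenow, Selenok, Txnrd1, Dio1 and Sephs2 whatever their p. Other genes, all 23 being eligible, were named by summary values, and the library ratios of Gpx3 and Msrb1 were added after their values were seen. Alternatives were the pseudocount, the RPKM minimum, scaling, read-number weights, a replicate block, leaving out each library, fitting only the knockouts, and exchanging the wild types.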

Additional observations from a re-analysis of the deposited data

Results flagged for a closer look

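The knockout effects differed between Secisbp2 and Trsp by the limma test of the difference itself for 32 gene values, each the Secisbp2 effect minus the Trsp effect on the log2 scale at an adjusted p under 0.05. All share the knockout libraries of the direct comparison, and library set and Secisbp2 genotype cannot be told apart in them.

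For mRNA the effects were higher in Secisbp2 knockout for Selenok (1.47), Selenot (1.33), Txnrd1 (1.20), Txnrd3 (1.18), Selenoi (0.89), Txnrd2 (0.80) and Selenoo (0.67). They were lower for Gpx2 (-4.95), Gpx4 (-1.78), Dio1 (-1.37), Sephs2 (-0.85), Selenop (-0.82), Selenos (-0.68) and Selenoh (-0.56). For footprints 5' of the UGA they were higher for Selenok (4.35), Txnrd1 (2.10), Txnrd2 (1.64), Txnrd3 (1.16), Selenoo (1.10) and Selenoi (1.05), and lower for Gpx2 (-7.22), Dio1 (-2.41), Selenop (-1.68), Gpx4 (-1.55) and Sephs2 (-1.36). Gpx2 had 0 reads 5' of the UGA in every Trsp wild type library, so its fitted values depend on the pseudocount and are no bound.

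Footprints 3' of the UGA differed for Selenot (2.84), Gpx1 (2.49) and Sephs2 (2.16), and the 3'/5' ratio for Sephs2 (3.51), Selenot (2.97), Dio1 (2.89) and Selenop (2.30). Selenot is of interest because its direct difference in the ratio was 0.36 and did not pass (limma adjusted p = 0.588). Its ratio was 5.67% on average in Secisbp2 wild type and 37.8% in Trsp wild type, so the wild type groups themselves stood apart.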

How the results depend on the processing

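Of 2492 gene values under the alternatives, 2342 kept their side of the threshold, 95 lost a call, 44 gained a call and 11 changed direction with a call on at least 1 side. Another 116 changed sign with no call on either side. All 11 came from setting each knockout against the other wild type: mRNA of Gpx4 (0.18), Selenoh (0.0059), Selenoi (-0.15) and Selenot (-0.080), 5' footprints of Gpx2 (1.56), Gpx3 (-1.999), Selenoi (-0.11) and Selenot (1.71), 3' footprints of Selenot (-0.54) and Sephs2 (-0.28), and the Selenot ratio (-2.25). That setting called 9 mRNA effects and 1 effect 3' of the UGA, and the calls of Gpx2 and Selenoo mRNA and of Gpx4, Selenok and Selenoo 5' footprints were lost. The direct 3' count was 1 with a pseudocount of 1, with no RPKM minimum or with read-number weights. With no minimum, 5 direct ratios passed. Common scaling gave 0 direct efficiency calls, 5 effects 3' of the UGA (3 higher, 2 lower) and 2 ratio effects (1 in each direction). Leaving out each library gave 13 to 15 direct mRNA calls, 8 to 14 5' calls, 1 to 3 3' calls, 3 to 4 ratio calls and 0 to 3 efficiency calls, and 11 to 15, 8 to 12, 3 to 6 and 4 to 6 for the effects on mRNA, 5', 3' and ratio. In the effects, the calls of Selenoh, Selenos and Sephs2 mRNA and of Selenoi, Selenoo and Sephs2 5' footprints were each lost without some single library. A lone library is then assumed to vary like the other groups.

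Same-numbered knockout replicates deviated together with a correlation of 0.61 for mRNA, 0.005 for 5' and 0.27 for 3' footprints over 2 pairs, and nothing in the labels says that the numbers mark a shared litter or day. With the replicate number as a block there were 14 direct mRNA calls, 12 5' calls (Selenoo lost, Gpx3 gained), 3 3' calls (Msrb1 gained), 4 ratio calls (Gpx1 gained) and 3 efficiency calls (Selenok gained). The effects numbered 14, 8 (Selenoi, Selenoo and Txnrd3 lost), 4 (Msrb1 gained) and 4. Depth limits the 3' comparisons, where Trsp knockout values of Selenot, Selenow, Dio1 and Msrb1 rest on 2 to 6 reads a library.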
